A study of Mus musculus with 21 samples.

Results

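The genes described here are *Gas5*, *Snhg1*, *Snhg3*, *Snhg5*, *Snhg6*, *Snhg8* and *Snhg12*. These are noncoding genes whose unspliced RNAs carry small nucleolar RNAs (snoRNAs) in their introns. They were chosen by name as the classic spliced snoRNA hosts that are also substrates of nonsense-mediated decay (NMD), and each symbol was matched to its Ensembl identifier in the deposited counts. Of 8 genes listed, 7 were found among the 51467 genes of the table, and *Snhg4* is not analysed here. The libraries came from V6.5 mouse embryonic stem cells (ESCs) kept in LIF with 2i, from 3 wild-type cultures and 4 *Ddx6* KO cultures. The *Ddx6* KO cultures were 2 of clone 1 and 2 of clone 2, both made with CRISPR/Cas9, so that what is peculiar to a clone can only be seen as a difference between the 2 clones. Cells of both genotypes were labelled with 500 µM 4-thiouridine (4sU) for 30 min, and from each culture the labelled (nascent) RNA and the rRNA-depleted total RNA were sequenced, which gave 14 libraries. *Ddx6* encodes a DEAD-box RNA helicase of P-bodies that acts in mRNA decapping and translational repression.

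A snoRNA host gene is transcribed by RNA polymerase II, and its introns are the source of snoRNAs, which guide the chemical modification of ribosomal RNA or take part in its processing. Box C/D snoRNAs guide 2′-O-methylation and box H/ACA snoRNAs guide pseudouridylation. Many hosts are ribosomal protein and translation factor genes, while in the genes described here the spliced exons encode no conserved protein. Their exons hold short reading frames with early stop codons, and the spliced RNA is known as a substrate of NMD, the pathway in which UPF1 and the SMG proteins remove RNAs whose translation stops upstream of an exon junction. Host genes of this kind commonly start at a pyrimidine tract, the 5′ TOP motif of genes for the translation machinery.

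To show how these genes begin, windows of 80 bases around the RefSeq starts are given, with 50 bases before the start and 30 bases from it on. Sequences are from RefSeq on GRCm38.p6, 5′ to 3′ on the strand of the gene. RefSeq entries were matched for 6 of the 7 genes, with 2 starts for *Gas5*. Capitals mark the longest run of C and T within 30 bases on either side of the start and every TATA in the 50 bases before it.
Gas5, first start, chr1:161034551-161034630, plus strand: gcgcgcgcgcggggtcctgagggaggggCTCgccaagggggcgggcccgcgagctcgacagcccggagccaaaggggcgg
Gas5, second start, chr1:161035116-161035195, plus strand: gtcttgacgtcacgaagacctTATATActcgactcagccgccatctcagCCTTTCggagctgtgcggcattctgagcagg
Snhg1, chr19:8723437-8723516, plus strand: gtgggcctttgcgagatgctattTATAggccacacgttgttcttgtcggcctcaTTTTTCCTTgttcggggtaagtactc
Snhg5, chr9:88522868-88522947, minus strand: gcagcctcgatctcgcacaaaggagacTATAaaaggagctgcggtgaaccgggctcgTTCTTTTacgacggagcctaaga
Snhg3, chr4:132353657-132353736, minus strand: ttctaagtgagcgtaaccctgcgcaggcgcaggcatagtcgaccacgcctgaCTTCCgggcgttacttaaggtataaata
Snhg8, chr3:123508307-123508386, minus strand: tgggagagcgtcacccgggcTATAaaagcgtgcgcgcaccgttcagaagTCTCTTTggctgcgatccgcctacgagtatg
Snhg12, chr4:132308628-132308707, plus strand: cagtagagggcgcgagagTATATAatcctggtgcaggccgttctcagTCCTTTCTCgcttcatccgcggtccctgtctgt

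TATA, which reads the same on both strands, was found before 5 of these 7 starts and before 9.08% of all 32851 RefSeq promoter entries. In the second *Gas5* start it began 29 bases upstream, in *Snhg1* 27 bases, in *Snhg5* 23 bases, in *Snhg8* 30 bases and in *Snhg12* 32 bases upstream. The RefSeq start of *Snhg3* had none in that stretch. A run of at least 6 C or T bases on the strand of the gene was present within 30 bases of the same 5 starts, and at 49.6% of all entries. Near the second *Gas5* start the run of 6 bases began at the base before the start, and in *Snhg12* a run of 9 began 3 bases before it. In *Snhg8* a run of 7 began at the base before the start. The runs of *Snhg1* and *Snhg5* began after the start, at bases 5 and 8 when the start is base 1. Both patterns were looked for after the sequences had been seen, and the matches only describe the letters in these windows.

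In the 4sU libraries of wild-type ESCs, the 7 genes lay between the 98.0th and the 99.8th percentile of mean level among the 14518 genes that were tested, which reached 3 CPM (counts scaled to the library total) in 3 or more libraries. Together they took 0.787% ± 0.0345 (SD, n = 3) of all 4sU counts in wild type and 0.0800% ± 0.000412 (SD, n = 3) of the total RNA counts. In *Ddx6* KO these shares were 0.415% ± 0.00933 (SD, n = 4) and 0.0418% ± 0.00173 (SD, n = 4). All 7 genes fell in *Ddx6* KO in nascent RNA, to between 38.6% and 52.6% of wild type, and all 7 fell in total RNA, to between 38.1% and 53.3%. The ratio of total to 4sU RNA, which is the measure of relative RNA stability in this design, passed the test for none of the 7. Tests used the quasi-likelihood method of edgeR on TMM-normalized counts with Benjamini-Hochberg adjustment over all genes, and a gene passed at an adjusted p below 0.05. By that rule, 21.0% of all genes fell in nascent RNA, 31.0% fell in total RNA and 12.4% changed in either direction in total over 4sU, while 20.6% rose in nascent RNA and 19.5% in total RNA. In bulk RNA, fewer cells of a type and less RNA per cell cannot be told apart, and the 92 spike-in rows of the table are at 0 in every library, so each value is relative to the rest of its library.

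**Figure D1:**
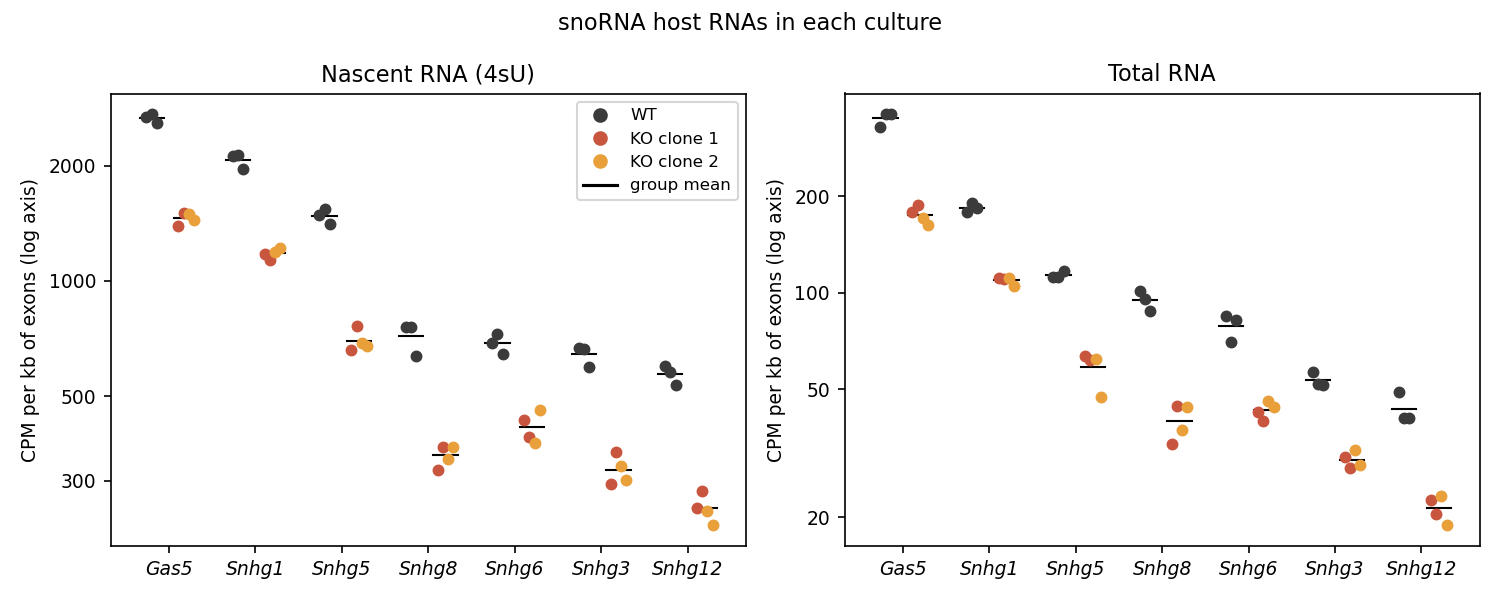
CPM per kb of annotated exon (log axis) of the 7 snoRNA host genes in nascent RNA (left) and total RNA (right). Points are cultures (3 wild type, 2 of each *Ddx6* KO clone) and lines are group means. For each gene in each panel, the 4 *Ddx6* KO points lie below the 3 wild-type points.

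*Gas5* (ENSMUSG00000053332) lies on the plus strand at chr1:161034607-161038539 of mm10, with 851 exonic bases in 13 merged blocks and 10 annotated snoRNAs within its span. It was first described as an RNA that accumulates in growth-arrested cells. In nascent RNA it had 2279, 2325 and 2205 CPM in the wild-type cultures, 1186 and 1284 CPM in clone 1, and 1275 and 1231 CPM in clone 2. In total RNA it had 280, 306 and 305 CPM in wild type, 152 and 159 CPM in clone 1, and 145 and 139 CPM in clone 2. Both clones lay well below wild type in both kinds of RNA, without overlap. The log2 change was -1.07 (SE 0.052, edgeR adjusted p = 4.1e-25) in nascent RNA and -1.15 (SE 0.056, adjusted p = 3.1e-25) in total RNA. The log2 change of total over 4sU was -0.08, with a 95% interval from -0.23 to 0.073 (adjusted p = 0.574).

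*Snhg1* (ENSMUSG00000108414), the host of U22 and 7 other annotated snoRNAs, lies on the plus strand at chr19:8723475-8726443 with 865 exonic bases. Its nascent level was 1838, 1842 and 1703 CPM in wild type, 1019 and 979 CPM in clone 1, and 1032 and 1055 CPM in clone 2. Its total RNA level was 155, 164 and 158 CPM in wild type, 95.9 and 95.1 CPM in clone 1, and 95.9 and 90.8 CPM in clone 2. The 4 *Ddx6* KO cultures were close to each other and apart from wild type. In nascent RNA the log2 change was -1.02 (SE 0.05, edgeR adjusted p = 8.8e-25), and in total RNA it was -0.91 (SE 0.058, adjusted p = 3.1e-20), the smallest fall in total RNA among the 7 genes. Total over 4sU differed by 0.11 on the log2 scale (95% interval from -0.044 to 0.26, adjusted p = 0.404). Of its exonic bases, 119 are shared with snoRNA genes on the same strand, where featureCounts by default assigns a read to neither gene.

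*Snhg5* (ENSMUSG00000097195), which hosts the box C/D snoRNAs *Snord50a* and *Snord50b*, lies on the minus strand at chr9:88521050-88522929 with 1045 exonic bases. In 4sU it had 1553, 1610 and 1476 CPM in wild type, 691 and 797 CPM in clone 1, and 721 and 707 CPM in clone 2. In total RNA it had 117, 118 and 122 CPM in wild type, 66.4 and 64.6 CPM in clone 1, and 64.9 and 49.7 CPM in clone 2. The groups did not overlap, and the second culture of clone 2 was the lowest in total RNA. The log2 change was -1.29 (SE 0.059, edgeR adjusted p = 1.9e-24) for nascent RNA and -1.11 (SE 0.072, adjusted p = 9.3e-19) for total RNA. Total over 4sU differed by 0.18 (95% interval from -0.0057 to 0.37, adjusted p = 0.217). Without the second culture of clone 2 it differed by 0.26 and passed (adjusted p = 0.0396), the only such case when each culture was left out in turn.

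*Snhg6* (ENSMUSG00000098234), the host of *Snord87*, is on the minus strand at chr1:9941959-9944118 and has 979 exonic bases. Nascent levels were 673, 712 and 631 CPM in wild type, 424 and 384 CPM in clone 1, and 370 and 449 CPM in clone 2. Total RNA levels were 83.0, 68.5 and 80.4 CPM in wild type, 41.7 and 38.9 CPM in clone 1, and 45.0 and 43.2 CPM in clone 2. Wild-type cultures were again higher throughout. The nascent log2 change of -0.93 (SE 0.062, edgeR adjusted p = 9.7e-19) was the smallest of the 7, and the total RNA change was -1.03 (SE 0.079, adjusted p = 1.2e-16). For total over 4sU the difference was -0.098 (95% interval from -0.30 to 0.10, adjusted p = 0.605).

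The other 3 genes host snoRNAs of the box H/ACA class, and *Snhg12* hosts both classes. *Snhg3* (ENSMUSG00000085241), the U17 host, is on the minus strand at chr4:132351934-132352933, inside the span of *Rcc1* on the same strand. It was the member with the fewest counts. Nascent *Snhg3* was 389, 386 and 346 CPM in wild type, 171 and 208 CPM in clone 1, and 191 and 175 CPM in clone 2. Total *Snhg3* was 33.0, 30.1 and 30.0 CPM in wild type, 17.9 and 16.5 CPM in clone 1, and 18.9 and 16.9 CPM in clone 2. Both clones were thus below wild type in both assays. The log2 change was -1.21 (SE 0.066, edgeR adjusted p = 5.3e-23) in nascent RNA and -0.97 (SE 0.10, adjusted p = 2.3e-12) in total RNA. Its total over 4sU difference, 0.24, was the largest of the 7 (95% interval from -0.0064 to 0.48, adjusted p = 0.215). The gene model used for counting starts downstream of the RefSeq start printed above, and 159 of its 581 exonic bases are shared with *Snora73a*, where the same limit on assignment holds.

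*Snhg8* (ENSMUSG00000104960), the host of *Snora24*, lies at chr3:123507552-123508404 on the minus strand with 604 exonic bases. It had 457, 458 and 384 CPM in nascent wild-type RNA, 193 and 223 CPM in clone 1, and 207 and 222 CPM in clone 2. In total RNA it had 61.0, 57.9 and 52.9 CPM in wild type, 20.4 and 26.9 CPM in clone 1, and 22.7 and 26.7 CPM in clone 2. The groups were apart in both, and its fall in total RNA was the largest of the 7. Log2 fold changes were -1.24 (SE 0.068, edgeR adjusted p = 3.3e-22) in nascent RNA and -1.39 (SE 0.091, adjusted p = 2.8e-19) in total RNA. Total over 4sU differed by -0.15 (95% interval from -0.38 to 0.075, adjusted p = 0.436).

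*Snhg12* (ENSMUSG00000086290) lies at chr4:132308678-132311024 on the plus strand with 1363 exonic bases, of which 328 are shared with 3 of its snoRNA genes. Nascent *Snhg12* was 817, 789 and 731 CPM in wild type, 348 and 385 CPM in clone 1, and 341 and 313 CPM in clone 2. Total *Snhg12* was 66.7, 55.6 and 55.6 CPM in wild type, 31.0 and 27.9 CPM in clone 1, and 31.8 and 25.7 CPM in clone 2. No *Ddx6* KO culture reached the wild-type range. It had the largest fall in nascent RNA, with a log2 change of -1.37 (SE 0.062, edgeR adjusted p = 1.1e-25), and a change of -1.18 (SE 0.086, adjusted p = 1.9e-17) in total RNA. Total over 4sU differed by 0.20 (95% interval from -0.019 to 0.41, adjusted p = 0.253).

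**Figure D2:**
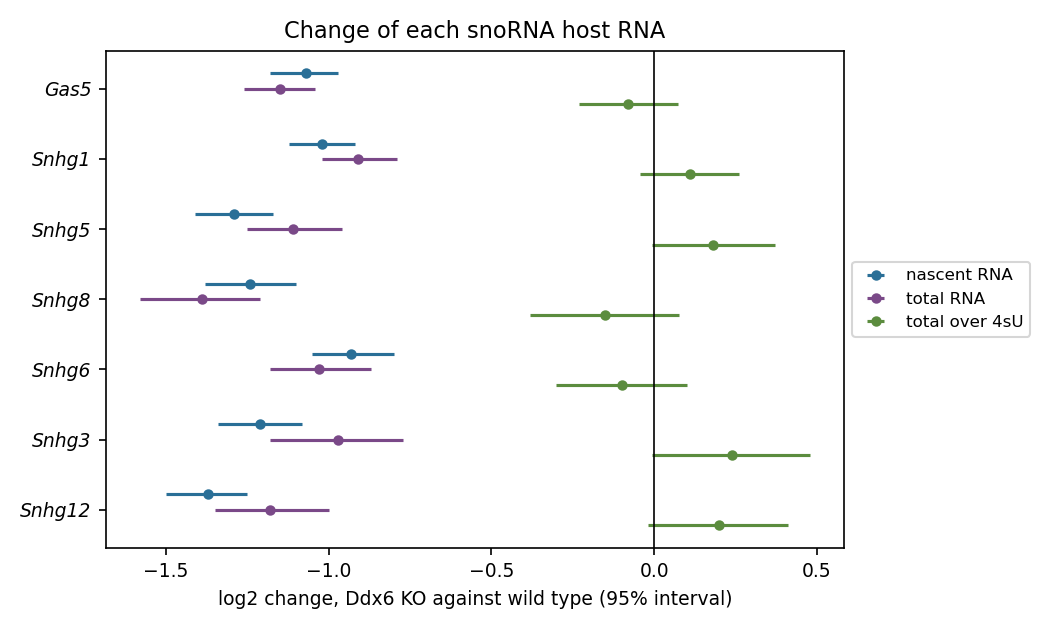
Log2 change between *Ddx6* KO and wild type for each gene in nascent RNA, total RNA and total over 4sU, as points with 95% intervals from edgeR. Nascent and total changes all lie between -1.39 and -0.91, while every interval of total over 4sU includes 0.

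Across the 7 genes, the median log2 change was -1.21 in nascent RNA and -1.11 in total RNA, while over all genes tested it was 0.0011 and -0.099. Every *Ddx6* KO culture was below every wild-type culture for 7 of 7 genes in 4sU CPM and for 7 of 7 in total CPM. The same complete separation was found for 12.6% of all genes in 4sU and for 21.2% in total RNA. Within the list, the log2 changes spanned -1.37 to -0.93 in nascent RNA and -1.39 to -0.91 in total RNA. When each clone was compared with wild type on its own, all 7 genes again fell in both assays. In the direct comparison of clone 1 with clone 2, 0 of 7 genes passed in nascent RNA, total RNA or total over 4sU by edgeR, and 0 of 7 had an unadjusted p below 0.05. Over all genes, 0.172%, 0.296% and 0.00689% passed in these comparisons, so the count of 0 is near the background. The clone differences lay between -0.062 and 0.16 in nascent RNA and between -0.14 and 0.18 in total RNA on the log2 scale. *Ddx6* itself differed more between the clones in total RNA, with 59.6 and 70.7 CPM in clone 1 and 23.9 and 22.5 CPM in clone 2, against 314, 357 and 363 CPM in wild type. TMM scaling adds to the changes, since its factors were 0.923 to 0.944 for wild type and 1.04 to 1.07 for *Ddx6* KO. With library size alone, the median over all genes was 0.21 in nascent and 0.056 in total RNA, the medians of the 7 genes were -1.01 and -0.95, and all 7 still passed in both.

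For total over 4sU, 0 of 7 genes passed by edgeR, and 0 of 7 had an unadjusted p below 0.05. Of all genes 12.4% passed, so a count of 0 among 7 is near the background. Limma-voom and DESeq2 also called none of the 7. The estimates were negative for *Gas5*, *Snhg6* and *Snhg8* and positive for *Snhg1*, *Snhg3*, *Snhg5* and *Snhg12*, with a median of 0.11 beside -0.092 over all genes. Taken over the 7 genes, the 95% intervals reached from -0.38 to 0.48, or from 76.6% to 139% of the wild-type ratio. The interval of each gene, given above, is narrower than this span. The ratios of single cultures overlapped between genotypes for 6 genes. For *Snhg8* they did not. Its ratios were -2.92, -2.99 and -2.85 in wild type, -3.17 and -3.00 in clone 1, and -3.11 and -3.01 in clone 2. The test did not separate this gap from 0. The share of all genes without overlap in this ratio was not counted, so the gap is not read as particular to *Snhg8*.

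The RNAs of these genes were strongly represented in the nascent fraction. In wild-type ESCs the fitted log2 ratio of total to 4sU RNA was -2.93 (SE 0.08) for *Snhg8*, -2.94 (SE 0.06) for *Gas5*, -3.13 (SE 0.074) for *Snhg6*, and -3.51 (SE 0.06) for *Snhg1*. It was -3.61 (SE 0.082) for *Snhg3*, -3.71 (SE 0.072) for *Snhg5* and -3.73 (SE 0.077) for *Snhg12*. Between 4.49% of all genes tested (for *Snhg12*) and 10% (for *Snhg8*) had a lower ratio. Among the 969 long noncoding genes tested, whose median was -2.95, the share with a lower ratio was 23.5% for *Snhg12* and 50.8% for *Snhg8*. The low ratios of the hosts thus lay at the middle or in the lower part of the long noncoding genes, and far under the median of 0.32 of the protein-coding genes. In *Ddx6* KO the ratios ranged from -3.02 for *Gas5* to -3.54 for *Snhg12*, with SEs of 0.054 and 0.073. The ratio depends on the scaling between the assays, so its zero point is set by the other genes and it gives no half-life in time.

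**Figure D3:**
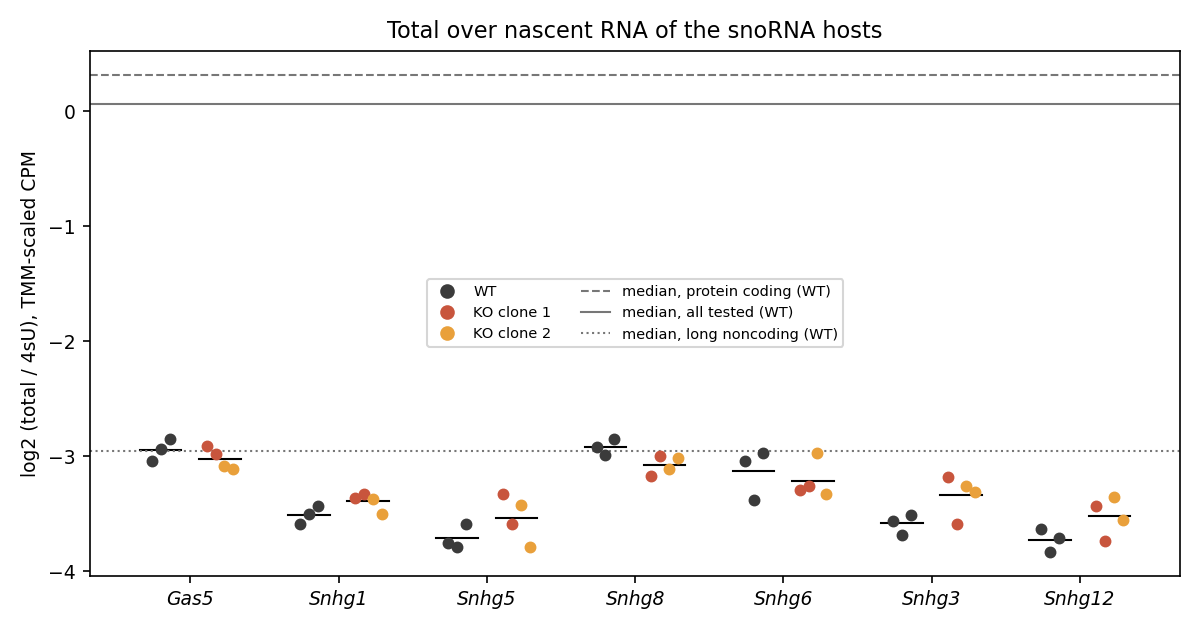
Log2 ratio of total to 4sU RNA (TMM-scaled CPM with a pseudocount of 0.5) for each gene. Points are cultures, short lines group means and horizontal lines the wild-type medians of all tested, protein-coding and long noncoding genes. Points of both genotypes lie between -3.83 and -2.85, near or below the long noncoding median of -2.95.

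Levels between genes were compared as CPM per kb of exon. The full exonic length was used, also where bases are shared with snoRNA genes on the same strand. These are 119 of 865 bases in *Snhg1*, 159 of 581 in *Snhg3* and 328 of 1363 in *Snhg12*. Levels per kb of *Snhg1*, *Snhg3* and *Snhg12* may thus be too low, and the order given here below *Snhg5* is not settled. In wild-type nascent RNA the order was *Gas5* at 2667 ± 71.0 (SD, n = 3), *Snhg1* at 2074 ± 91.4, *Snhg5* at 1480 ± 64.4, *Snhg8* at 717 ± 70.2, *Snhg6* at 687 ± 41.6, *Snhg3* at 644 ± 41.4 and *Snhg12* at 571 ± 32.1. From *Snhg8* down to *Snhg12*, neighbours in this order overlapped between cultures. In wild-type total RNA the order was the same, from 349 ± 17.4 CPM per kb for *Gas5* through 184 ± 5.29 for *Snhg1* to 43.5 ± 4.72 for *Snhg12*, and no neighbours overlapped. In *Ddx6* KO, *Gas5* was again first, with 1462 ± 53.1 (SD, n = 4) in nascent and 175 ± 10.3 in total RNA, and *Snhg12* was last, with 254 ± 21.5 and 21.3 ± 2.05. There, *Snhg6* was above *Snhg8* in both assays, and the ranges of these neighbours overlapped in total RNA but not in nascent RNA.

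The snoRNAs inside the hosts were counted as genes of their own. Of 28 annotated on the same strand within the 7 spans, 23 could be tested. Reads of the unspliced host that fall in a snoRNA cannot be told apart from the snoRNA itself in these counts. In nascent RNA 22 of the 23 fell and 0 rose, with a median log2 change of -1.08. In total RNA 4 of the 23 had fewer than 10 counts over the 7 libraries, and among the other 19, a limit set after the counts were seen, 17 fell and 0 rose, with a median of -0.91. The 9 tested snoRNAs of *Gas5* had nascent changes from -1.28 to -0.95, and the 8 of *Snhg1* from -1.27 to -0.87, close to those of the spliced hosts. Total over 4sU rose for 2 of these 19, which are named for that reason after their values were seen. Of all 14518 genes tested, 12.4% passed in this measure in either direction, and 549 genes rose. The count of 2 is therefore not read as a trait of the hosted snoRNAs. *Snora73b*, the U17 snoRNA in *Snhg3* that takes part in rRNA processing, had 571 ± 42.4 CPM (SD, n = 3) in wild-type total RNA and 329 ± 19 CPM (SD, n = 4) in *Ddx6* KO, against 191 ± 8.07 and 83.9 ± 5.11 CPM in 4sU. Its log2 changes were -1.39 in nascent RNA, -0.95 in total RNA and 0.44 in total over 4sU (edgeR adjusted p = 0.000565). The snoRNA of *Gas5* carried under the symbol *Mir5117* rose by 0.69 in total over 4sU (edgeR adjusted p = 0.0129). It had 124 ± 10.8 and 59.5 ± 2.65 CPM in wild-type and *Ddx6* KO nascent RNA, and 7.51 ± 0.772 and 5.64 ± 0.719 CPM in total RNA.

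Other host genes were examined as lists. Of 12 other noncoding snoRNA hosts, 7 fell and 1 rose in nascent RNA, and 8 fell and 1 rose in total RNA. In total over 4sU 0 of them passed. Their medians were -1.0, -0.98 and -0.0044. Among all genes 21.0% fell in nascent RNA, 31.0% fell in total RNA and 12.4% passed in total over 4sU. *Snhg9*, *Snhg10* and *Snhg18* had means of only 0.833, 1.79 and 3.07 CPM in wild-type total RNA. Their SEs in total over 4sU were 0.66, 0.48 and 0.55, so that test says little about them. The gene that rose, named after its values were seen, was *Snhg11*, with log2 changes of 0.73 (SE 0.14, edgeR adjusted p = 3.2e-05) in nascent and 0.74 (SE 0.13, adjusted p = 3.9e-06) in total RNA. Its wild-type total over 4sU log2 ratio was -0.85, above those of the 7 genes, but this was not particular to *Snhg11*. *Snhg14* and *Snhg18*, also named after their values were seen, had higher ratios of 0.97 and -0.54. Both fell in total RNA, with log2 changes of -0.39 and -1.60 (edgeR adjusted p = 0.000706 and 0.000278). Among 32 protein-coding hosts, most of them ribosomal protein genes, 31 fell and 0 rose in nascent RNA and 30 fell and 0 rose in total RNA, with medians of -0.83 and -0.68. For these hosts 6 rose and 1 fell in total over 4sU, with a median of 0.15, and with TMM within each assay 11 rose. Under each scaling tried, most genes of both lists fell in nascent and total RNA. The largest rise was that of *Rpl5*, a ribosomal protein of the large subunit (0.68, SE 0.13, edgeR adjusted p = 0.000199). *Eif4a2*, a translation initiation helicase, was the gene that fell (-0.34, SE 0.07, adjusted p = 0.000489). Lower nascent and total RNA in *Ddx6* KO was thus found in most noncoding and protein-coding hosts. In wild type, the log2 ratio of total to 4sU ran from -5.31 to 1.57 among the protein-coding hosts, with a median of -1.08, and from -4.26 to 0.97 among the other noncoding hosts, with a median of -2.94. Of the protein-coding hosts, 22 of 32 had a ratio above the highest of the 7 genes and 10 did not. Of the other noncoding hosts, 5 of 12 had a ratio above it. The study kept only uniquely mapped reads, so reads that match several places are missing from these counts. Wild-type total RNA means of the ribosomal protein hosts ran from 4.00 CPM for *Rpl23a* to 2822 CPM for *Rpl4*, with *Rpl5* at 19.4 CPM. How far the mapping rule moved their levels and ratios was not tested.

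**Figure D4:**
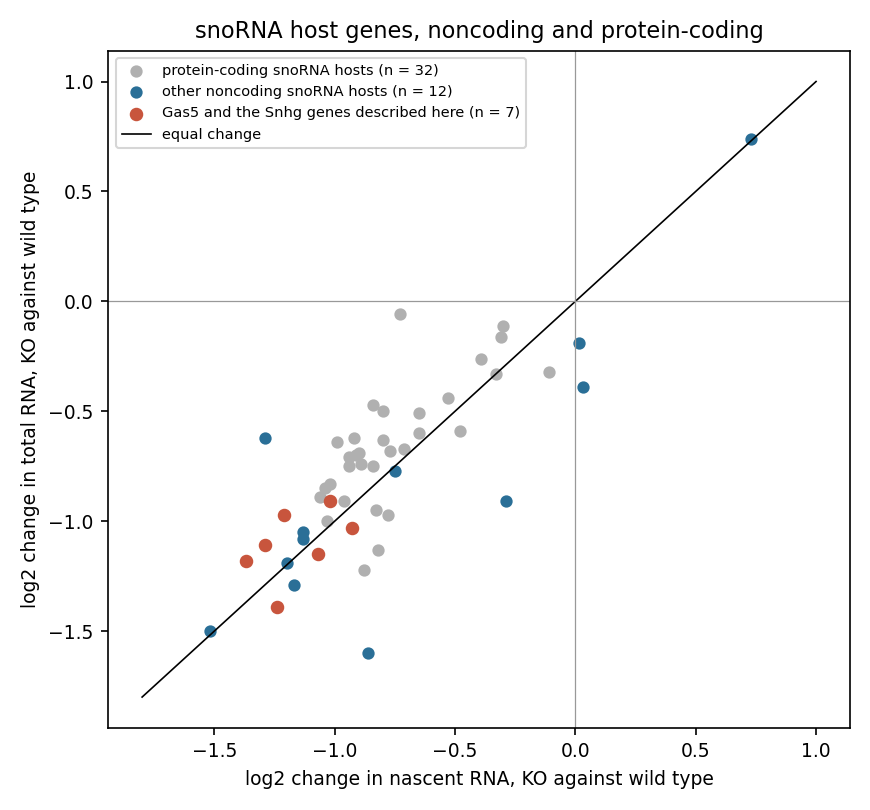
Log2 change in total RNA against that in nascent RNA between *Ddx6* KO and wild type for the 7 genes described here, 12 other noncoding snoRNA hosts and 32 protein-coding snoRNA hosts. The diagonal marks equal change. The 7 genes lie near it at the lower left, and among the other noncoding hosts *Snhg11* lies at the upper right at 0.73 and 0.74.

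Lists of genes tied to NMD and to the snoRNA particles moved less uniformly. Beside their counts stand the shares of all genes. In nascent RNA 20.6% rose and 21.0% fell, and in total RNA 19.5% rose and 31.0% fell. In total over 4sU 12.4% passed in either direction. Among 9 other known NMD substrates, which are protein-coding and largely genes of the stress response, 3 rose and 5 fell in nascent RNA, and 2 rose and 4 fell in total RNA. In total over 4sU 1 rose and 1 fell, with a median of 0.33. With DESeq2, 1 rose and 5 fell in nascent RNA, and in total over 4sU 2 rose and 1 fell with TMM within each assay and 1 rose and 2 fell with library size only. *Ifrd1*, a regulator of transcription, rose by 0.52 (SE 0.10, edgeR adjusted p = 0.000206), and *Upp1*, uridine phosphorylase, had a change of -0.86 (SE 0.11, adjusted p = 1.5e-07). Of 10 NMD factors, 5 fell and 0 rose in total RNA, but 2 rose and 3 fell when scaled by library size only. Their median in total RNA was -0.093, near the -0.099 of all genes, with a range from -0.53 to 0.13. *Smg5*, an adaptor of NMD decay, rose by 0.42 in total over 4sU (SE 0.094, edgeR adjusted p = 0.00143), while *Smg1*, the kinase that phosphorylates UPF1, and *Upf2*, its partner at the exon junction, fell by 0.48 and 0.42 (adjusted p = 0.000132 and 0.00609). Of 10 genes for snoRNP core and assembly proteins, 5 fell and 1 rose in nascent RNA, and 6 fell and 1 rose in total RNA, with medians of -0.37 and -0.31. *Nhp2*, of the H/ACA core, and *Nop56*, of the C/D core, rose in total over 4sU by 0.45 (SE 0.10, adjusted p = 0.00115) and 0.31 (SE 0.078, adjusted p = 0.00459).

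Genes next to the hosts did not all move with them. Of 6 tested genes that overlap a host or lie within 1000 bases, 2 fell and 0 rose in nascent RNA, while 1 fell and 2 rose when scaled by library size only. In total RNA 3 fell and 1 rose. Among all genes 21.0% fell in nascent RNA, and 31.0% fell and 19.5% rose in total RNA, so counts among 6 genes say little. *Mcmdc2*, which overlaps *Snhg6* on the opposite strand, had a log2 change of -0.70 (SE 0.27, edgeR adjusted p = 0.0353) in nascent RNA and -0.77 (SE 0.23, adjusted p = 0.00389) in total RNA, at 7.67 and 5.90 CPM in wild type. *Zbtb37*, a zinc finger gene on the opposite strand whose start is 242 bases from that of *Gas5*, had a nascent log2 change of 0.20 (SE 0.095, edgeR adjusted p = 0.083) and rose in total RNA by 0.88 (SE 0.089, adjusted p = 3.6e-12). With library size only, its nascent change of 0.41 passed (adjusted p = 0.000358). *Slc3a2*, an amino acid transporter subunit on the opposite strand with its start 106 bases from that of *Snhg1*, had a nascent log2 change of -0.64 (SE 0.056, adjusted p = 1.5e-14) and a total RNA change of -0.52 (SE 0.055, adjusted p = 9.5e-12). *Gm17300*, a noncoding gene whose exons lie opposite 497 of the 581 exonic bases of *Snhg3*, had a mean of 5.07 CPM in wild-type total RNA. Its nascent change was -0.81 (SE 0.47, edgeR adjusted p = 0.165) and its total RNA change was -1.09 (SE 0.32, adjusted p = 0.00386). *Rcc1*, which contains *Snhg3*, had a nascent change of -0.18 (SE 0.082, adjusted p = 0.0672), which was 0.022 with library size only, and a total RNA change of 0.045 (SE 0.065, adjusted p = 0.591).

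Over the 14 libraries, the genes outside the list whose log2 levels were most like the mean standardized profile of the 7 genes were *Srsf7*, a splicing factor, *Rpl30*, a ribosomal protein gene, and *Rabggtb*, a subunit of Rab geranylgeranyl transferase. Pearson's r was 0.999 for each, which is mostly the step between 4sU and total RNA that all 14 points share. Their nascent log2 changes were -0.38, -0.83 and -1.08, and their wild-type total over 4sU log2 ratios were -1.06, -2.67 and -2.74.

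Markers were examined beside these results. The summed total RNA level of 6 ESC markers was 2851 to 2950 CPM in wild type and 3737 to 3947 CPM in *Ddx6* KO. Of these 6, 4 rose and 0 fell in total RNA, where 19.5% of all genes rose. In nascent RNA 4 rose and 1 fell, where 20.6% of all genes rose and 21.0% fell. Summed fibroblast markers in total RNA were 3.14 to 5.34 CPM in wild type and 10.8 to 13 CPM in *Ddx6* KO. Of these 4, 2 could be tested, *Col1a1* and *Thy1*, and both rose in total RNA. Neither passed in nascent RNA, where both passed with library size only. Their wild-type means were below the 3 CPM of the filter, at 2.17 and 2.37 CPM in total RNA. In *Ddx6* KO total RNA they were above it, at 4.85 and 7.41 CPM. Both genes thus entered the test through the *Ddx6* KO libraries, so their rise is not independent of the filter. The untested *Col3a1* and *Twist2* were at 0.0339 and 0 CPM in *Ddx6* KO total RNA. For primitive endoderm, sums of 4 markers were 7.48 to 12.1 and 10.3 to 15.9 CPM. The 2 of them that could be tested, *Gata4* and *Dab2*, also rose in total RNA. The untested *Sox17* and *Gata6* went the other way there. Their means were 1.82 and 0.721 CPM in wild type and 0.592 and 0.293 CPM in *Ddx6* KO. For trophectoderm, sums of 3 markers were 12.5 to 16.6 and 10.3 to 15.2 CPM, with *Eomes* as the tested one. Primed epiblast markers summed to 10.8 to 14.3 CPM in wild type and 1.77 to 3.41 CPM in *Ddx6* KO, with *Otx2* as the tested one of 3. Their part in the changes of the host RNAs was not tested.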

How the data were processed

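RNA from 7 cultures was sequenced as 4sU-labelled and as total RNA. The authors trimmed reads with cutadapt 1.14, aligned them to mm10 with STAR 2.5.3a and deposited raw counts per gene from featureCounts 1.5.3, counted by strand on a Gencode M14 annotation. Both sequencing runs of a 4sU library, single-end and paired-end, were summed here, as in the study. Deposited counts per library totalled 2441639 to 3570192 (4sU) and 5724179 to 7369651 (total RNA), and a floor of 3 counts, which covers counting error only, was at most 1.23 CPM in the 4sU library with the fewest counts. Gene lengths, deposited beside the counts in bases, served for CPM per kb. All 51467 genes without the spike-in rows were used, and the 14518 that reached 3 CPM in 3 or more libraries were tested in edgeR 4.0.16 (R 4.3.3, TMM, robust quasi-likelihood, genotype, assay and interaction). SE is the absolute log2 change over the square root of F. The code was tested on simulated data. Alternatives were limma-voom (limma 3.58.1), DESeq2 1.42.0, other scalings, each run, each clone and each culture left out. The members and lists were chosen with earlier results of these data known. Named are all members and, from each list, up to 2 rises and 2 falls in total over 4sU that passed the test, and others only where stated. A gene that this rule names is not reported here. Symbols and snoRNA positions were from Gencode M21. Both libraries of a culture are paired by origin, and their deviations from group means correlated at 0.00 to 0.12 across genes. Replicate numbers shared by wild type and *Ddx6* KO correlated at -0.04 to 0.09 and were not treated as pairs. The sources used here do not say how far replicates of a clone were grown apart, so p values measure the spread between these samples.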

Additional observations from a re-analysis of the deposited data

Results flagged for a closer look

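Each quantity (4sU CPM, total CPM and total over 4sU on the log2 scale) of each of the 7 genes was examined for a *Ddx6* KO culture that stood apart from the other 3 by Dixon's test, which gave 1 case among 21. Chance gives about 1 in 20. *Snhg5* in total RNA was 49.7 CPM in the second culture of clone 2, while the other 3 *Ddx6* KO cultures lay between 64.6 and 66.4 CPM, a gap of 0.892 of the whole range. Without that culture *Snhg5* passed the test in total over 4sU, as given with its values above.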

How the results depend on the processing

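All 7 genes passed, and all fell, in nascent and in total RNA under each of the 17 alternatives per comparison, with log2 changes from -1.45 to -0.72 in nascent RNA and from -1.47 to -0.75 in total RNA. With scaling by library size only, the median change was -1.01 in nascent and -0.95 in total RNA, against -1.21 and -1.11. For total over 4sU, 125 of 126 values kept their side of the threshold, and the exception was *Snhg5* without the second culture of clone 2, so that leaving out each culture in turn gave 0 to 1 genes that passed. The median change in total over 4sU stayed between 0.061 and 0.20. With culture as a replicate block it was 0.11 with 0 of 7 genes passed, and with the labelled number as a replicate block the medians were -1.25, -1.12 and 0.11, and neither block changed a call. The wild-type median log2 ratio of total to 4sU RNA was -3.51, and it was -3.62 with the single-end run only and -3.31 with the re-sequencing run only, so the size of the ratio moves with the run. Depth limits the total RNA values most, since *Snhg3* had 105 to 211 counts in a total RNA library and *Snhg8* 123 to 379. Changes that affect all RNAs alike cannot be seen in these counts.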
